A study of Cervus nippon with 12 samples.

Results

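The miR-26 family was followed across 12 small RNA libraries of sika deer (Cervus nippon) antler cells. All names of the form bta-miR-26 with any letter or arm suffix were taken, which gave 3 names (miR-26a, miR-26b and miR-26c) out of 545 listed miRNAs, 475 of them with a cattle (bta-) name. No arm of the family was listed separately. All cells were wild type and came from growing antlers of 3-year-old male deer, with 3 libraries in each of 4 groups. CP_0, CP_7 and CP_14 were reserve mesenchyme cells (RMCs), the mesenchymal stem cells of the antler tip, after 0, 7 and 14 days of chondrogenic induction. The paper induced RMCs as cell pellets in chondrogenic medium, and does not say whether the day 0 cells were pellets. CC were cultured chondrocytes of the antler and are given no induction time. The paper collected antler tissue at an earlier and a later day of growth, and does not say which gave which library. For each tissue type the paper states 3 biological replicates, but not which deer gave which library. The p-values thus measure the spread between these libraries, which may be technical. The 6 comparisons between groups share libraries and are not independent of each other. RMCs at day 0 differ from CC in cell type and from CP_7 and CP_14 in induction time, and the chondrocytes are no later time point of the same culture.

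MicroRNAs are short RNAs that guide Argonaute proteins to messenger RNAs, mainly through the seed at their 5′ end, and lower the output of those messages. miR-26a and miR-26b share a seed and are commonly processed from introns of the CTDSP genes, which encode small phosphatases. The family is known for targeting EZH2, the enzyme that places the repressive H3K27 methyl mark, and for being repressed by MYC, and miR-26a is known to change during osteogenic differentiation of mesenchymal cells. The names used here are cattle names given to deer reads.

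The libraries held from 539455 (CP_7) to 10256572 (CC) reads on listed miRNAs. CP_7 was the shallowest group, with 539455 to 1032029 reads, against 2791559 to 3864900 in CP_14. The deposited values are reads scaled to 1 fixed total of listed miRNA reads in each library (RPM), so a group in which 1 abundant miRNA takes fewer reads has higher RPM for the rest. miR-21-5p took 23.2% ± 1.6 (SD, n = 3) of the reads in CP_7 and 75.2% ± 2.0 in CC. Values are therefore also given after TMM normalization, a composition factor set so that most miRNAs keep their level between libraries. As for other cells, the red cell miRNAs (miR-451, miR-144 and miR-486) summed to 11.8 to 4192 RPM at day 0, 22.1 to 145 at day 7, 3486 to 5167 at day 14 and 1387 to 1460 in chondrocytes. Of these 3 names, 2 had reads at days 7 and 14. CP_0 replicate 3 stood apart in its group, with 1906 RPM of miR-451 against 9.08 and 7.08 in the other 2 libraries, and fold changes against CP_0 are also given without it. Muscle miRNAs summed to 537 to 684, 4540 to 6637, 1687 to 1757 and 721 to 754 RPM in the order CP_0, CP_7, CP_14 and CC, and both names of endothelial miR-126 to 47.1 to 63.6, 188 to 3083, 57.4 to 83.6 and 28.4 to 38.5. White cell miRNAs came to at most 35.4 RPM and epithelial ones to at most 44.4 in any library. The muscle list and miR-126 were highest at day 7, as miR-26b was, and miR-126 spread widely there (188 to 3083 RPM). The part of other cells in the family's values was not tested. In bulk libraries, fewer cells of a type and less RNA per cell cannot be told apart. The defining cartilage miRNA, miR-140, was present in every library at 8831 to 11013 RPM, also in CP_0.

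miR-26a and miR-26c could not be separated. Their reads were equal in 9 of the 12 libraries and differed by at most 3 reads in the other 3, so that the pair is counted once, as miR-26a, and the family comprises 2 measured miRNAs. Both passed the filter on low counts in every comparison. miR-26a had 5431 to 45743 reads a library and miR-26b 1193 to 3666.

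miR-26a was the major member in every library. Among the 475 cattle names it ranked 14 in every library of day 0, 15 to 17 at day 7, 13 or 14 at day 14 and 9 or 10 in chondrocytes, and took 0.389% to 1.03% of all reads. miR-26b ranked 46 to 52 at day 0, 36 or 37 at day 7, 39 to 41 at day 14 and 53 to 57 in chondrocytes. These ranks do not depend on depth or on composition factors, and they place miR-26b nearest to the top at day 7 and miR-26a in chondrocytes.

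The balance between both members separated the groups. The number of miR-26a reads for each miR-26b read was 8.85, 8.66 and 8.86 in the 3 CP_0 libraries. It was 4.55, 4.75 and 4.55 in CP_7 and 4.80, 4.57 and 4.77 in CP_14. In CC it was 12.8, 13.4 and 12.5. The chondrocytes thus lay above every RMC library, the uninduced RMCs lay between, and the libraries of days 7 and 14 overlapped with each other and with no other group.

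The mean ratio of CP_0 was 8.79 ± 0.115 (SD, n = 3), that of CP_7 4.62 ± 0.114, that of CP_14 4.71 ± 0.128 and that of CC 12.9 ± 0.450. It differed between the 4 groups (exact permutation test of the F statistic over all 369600 assignments, F = 1101, p = 0.00013). From CP_0 to CP_7 the log2 ratio changed by -0.93, which is 0.525 times the ratio of day 0. From CP_7 to CP_14 it changed by 0.029, and over both intervals together by -0.90. CC exceeded CP_14 by 1.45 on the log2 scale (2.73-fold), CP_7 by 1.48 (2.79-fold) and CP_0 by 0.55 (1.46-fold). The exact two-sided permutation test gave p = 0.1 for each of these 5 differences, the smallest value that 3 libraries against 3 allow, and p = 0.2 for CP_14 against CP_7. Leaving out CP_0 replicate 3 or any other single library kept the CP_7 against CP_0 difference between -0.95 and -0.92. Without CP_0 replicate 3 the difference from CP_0 was -0.89 for CP_14 and 0.56 for CC. Because both members are counted in the same library, this ratio is untouched by depth and by the choice of normalization.

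**Figure D1:**
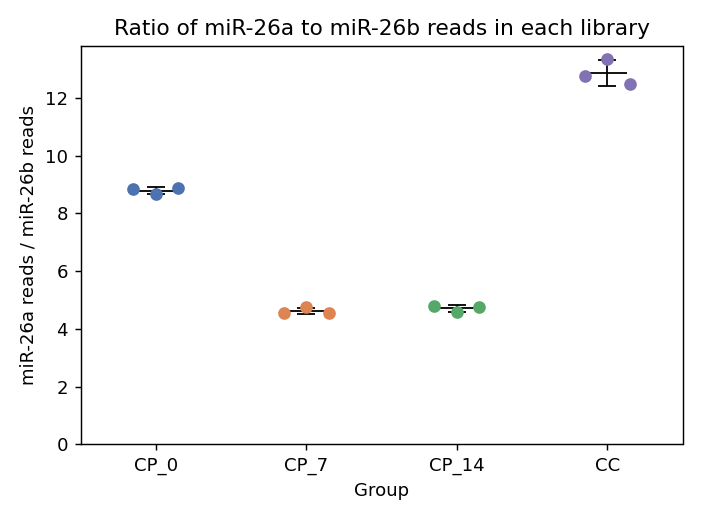
The vertical axis is the number of miR-26a reads divided by the number of miR-26b reads in a library (no unit) and the horizontal axis the 4 groups, with 1 point a library and black marks for the mean and its SD (n = 3). CC libraries lie at 12.5 to 13.4, CP_0 at 8.66 to 8.86, and CP_7 and CP_14 together at 4.55 to 4.80.

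Expressed as a share, miR-26b made up 10.2% ± 0.121 (SD, n = 3) of the family's reads at day 0, 17.8% ± 0.358 at day 7, 17.5% ± 0.396 at day 14 and 7.22% ± 0.232 in chondrocytes. The 95% Wilson interval of a single library was at most 1.85 percentage points wide, in the shallowest CP_7 library, and covers counting error only, because reads that carry no molecular identifier can be copies of 1 molecule. The gap between CP_0 and CP_7 was larger than that width, and the gap between CP_7 and CP_14 was smaller.

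miR-26b, the minor member, was higher at days 7 and 14 of induction. After TMM normalization over the 12 libraries it stood at 527, 545 and 513 in CP_0. The CP_7 libraries were at 1109, 1288 and 1057. CP_14 had 886, 948 and 978. Every library of days 7 and 14 thus lay above every library of day 0, and CP_7 lay above CP_14. The CC libraries returned 567, 556 and 565, close to CP_0 and below every induced library.

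In RPM as deposited, miR-26b was at 489, 461 and 439 in CP_0 and at 2193, 2170 and 2211 in CP_7. It was at 906, 971 and 914 in CP_14 and at 317, 333 and 368 in CC. The order of the 3 RMC groups was the same on both scales, whereas CC lay below CP_0 in RPM and slightly above it after TMM normalization over the 12 libraries.

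From day 0 to day 7 miR-26b rose 2.25-fold (log2 fold change 1.17, standard error, SE, 0.090, limma adjusted p = 2.7e-05, 3 libraries against 3). Its change was larger than that of 75.7% of the other miRNAs tested. Both measured members were called in this comparison, in which 63.8% of the 246 miRNAs tested were called at an adjusted p below 0.05 and 35.8% were called higher, against 28% lower. The groups did not overlap for either member, as for 67.9% of all miRNAs tested, so neither count is particular to the family. The rise of miR-26b kept its call whichever library was omitted (0.90 to 1.22, 1.12 without CP_0 replicate 3), and it was 0.013 and not called with unscaled reads, where the shallow CP_7 libraries are compared with deeper ones.

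From day 7 to day 14 miR-26b fell by 0.37 on the log2 scale (SE 0.089, limma adjusted p = 0.011). Here 52.8% of the 246 miRNAs tested were called, 24.4% as higher and 28.5% as lower, and 62.2% had groups without overlap, both members among them. The call was lost without CP_7 replicate 1 (-0.32) or CP_7 replicate 2 (-0.21), and with unscaled reads the direction was opposite (0.85). Over the whole course, CP_14 exceeded CP_0 1.79-fold (log2 fold change 0.84, SE 0.067, limma adjusted p = 5.8e-05), in a comparison that called 46% of 250 miRNAs, 24.8% as higher and 21.2% as lower, and in which 56.4% had no overlap. That difference was called and positive under all 6 scalings (0.59 or more), unscaled reads included, and whichever library was omitted (0.78 to 0.87, 0.81 without CP_0 replicate 3).

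In chondrocytes miR-26b was lower than in CP_14 by 0.74 on the log2 scale (log2 fold change -0.74, SE 0.061, limma adjusted p = 4.3e-06). The comparison called 74.6% of 276 miRNAs, 37.7% as higher and 37% as lower, and 78.6% had no overlap between groups. Against CP_7 the difference was -1.30 (SE 0.071, limma adjusted p = 7.3e-06), where 67.4% of 276 were called, 29% as higher and 38.4% as lower, and 70.7% had no overlap. It was -0.70 without CP_7 replicate 2 and -0.94 without CP_7 replicate 1, called in both cases. With unscaled reads these differences were 0.18 and 1.03, since the CC libraries are the deepest. Against CP_0, chondrocytes did not differ in miR-26b beyond the spread between libraries (-0.039, 95% interval -0.14 to 0.062, adjusted p = 0.47 by limma), in a comparison that called 55.8% of 260 miRNAs, 30% as higher and 25.8% as lower, with no overlap for 63.1%. It was -0.053 without CP_0 replicate 3. The direction of this difference depended on the scaling. It was -0.45 and called with library size only, and 0.23 and called with totals that leave out miR-21-5p.

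**Figure D2:**
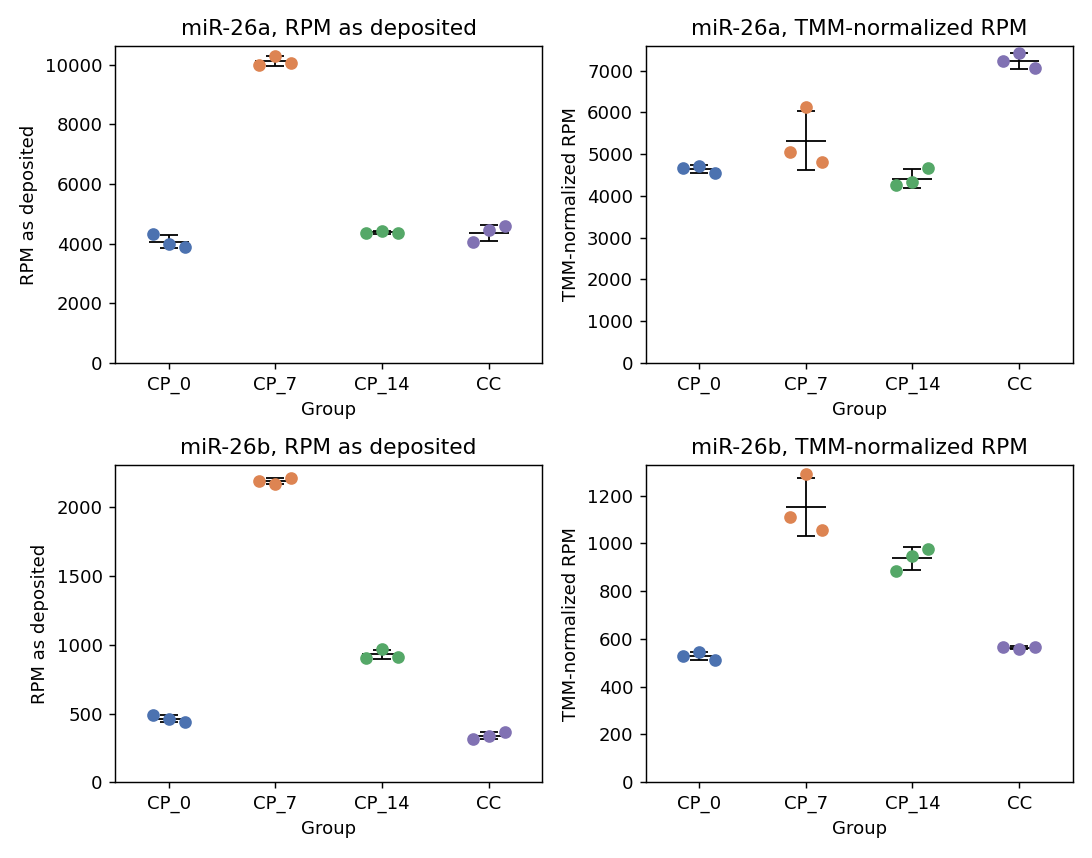
The vertical axes give RPM as deposited (left) and TMM-normalized RPM (right) of miR-26a (top) and miR-26b (bottom) for the 4 groups, with 1 point a library and black marks for the mean and SD (n = 3). miR-26b is highest in CP_7 on both scales, while miR-26a is highest in CP_7 in RPM (9980 to 10309) and in CC after TMM normalization (7053 to 7429).

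miR-26a, the major member, was highest in chondrocytes after TMM normalization and differed little among the RMC groups. Its TMM-normalized values were 4664, 4717 and 4548 in CP_0. They were 5044, 6119 and 4813 in CP_7. CP_14 libraries were at 4255, 4330 and 4665, and overlapped with CP_0. CC libraries were at 7231, 7429 and 7053, above all RMC libraries.

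In RPM the picture of miR-26a was another one. It was at 4329, 3993 and 3895 in CP_0 and at 4350, 4433 and 4361 in CP_14. CC had 4044, 4449 and 4588, and overlapped with CP_0. CP_7 stood alone at 9980, 10309 and 10068. The higher level in CC thus appears with composition factors, and the day 7 level in RPM shrinks with them.

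Relative to CP_14, miR-26a was higher in CC 1.63-fold (log2 fold change 0.71, SE 0.057, limma adjusted p = 3.7e-06), the opposite direction to miR-26b in the same libraries. The call held whichever library was omitted (0.67 to 0.73) and was -0.0090 and not called with library size only. Relative to CP_0 it was higher 1.42-fold (log2 fold change 0.51, SE 0.036, limma adjusted p = 6.2e-05), was 0.50 and called without CP_0 replicate 3, and was 0.098 and not called with library size only. Relative to CP_7 the log2 fold change was 0.18 (95% interval -0.0065 to 0.36, adjusted p = 0.079 by limma). In that comparison the replicate numbers were taken as pairing the libraries only because same-numbered libraries deviated together weakly (correlations of 0.12 to 0.17). The labels name no shared source. With the replicate number as a block the same 0.18 was called (adjusted p = 0.031 by limma). It rose to 0.80 and was called without CP_7 replicate 2, was 0.52 and 0.35 without CP_7 replicate 1 and CP_7 replicate 3, neither called, and was -1.22 and called with library size only.

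Within the RMC course miR-26a changed by 0.24 between CP_0 and CP_7 (SE 0.084, limma adjusted p = 0.038), a change larger than that of 55.6% of the other miRNAs tested. It kept the call only without CP_7 replicate 3 among the 6 libraries left out, came to 0.20 without CP_0 replicate 3, to 0.039 without CP_7 replicate 1 and to -0.051 without CP_7 replicate 2, and was -0.92 and called with unscaled reads. From day 7 to day 14 it fell by 0.34 (SE 0.087, limma adjusted p = 0.014), which kept the call only without CP_14 replicate 3 (-0.40) and came to -0.16 without CP_7 replicate 2. Between CP_14 and CP_0 the difference was -0.055 (95% interval -0.19 to 0.082, adjusted p = 0.47 by limma), was -0.082 without CP_0 replicate 3, and was -0.13 and called without CP_14 replicate 3.

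The order of the mean TMM-normalized levels was therefore CC, CP_7, CP_0 and CP_14 for miR-26a, and CP_7, CP_14, CC and CP_0 for miR-26b. For miR-26a the neighbours CP_0 and CP_14 did not differ beyond the spread between libraries, and CC and CP_7 did so in some fits and not in others. A single fit of the 12 libraries, on the scale of this order, gave 0.45 for them (limma adjusted p = 5.0e-04). For miR-26b the neighbours CC and CP_0 did not differ beyond the spread between libraries in the fit of their 6 libraries. Their difference was called in opposite directions with library size only (-0.45) and with totals that leave out miR-21-5p (0.23). Both members summed to 5171 ± 102 (SD, n = 3) at day 0, 6477 ± 818 at day 7, 5354 ± 260 at day 14 and 7800 ± 183 in chondrocytes.

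The 6 ways of scaling the reads shifted the fold changes of all miRNAs nearly alike, so that a member's distance from the median of all miRNAs is nearly fixed by construction and its agreement between scalings is no separate support. For CP_7 against CP_0 the log2 fold change of miR-26b ran from 0.013 to 2.24 over the 6 scalings, and its distance from the median of all miRNAs tested from 1.05 to 1.12, and it exceeded 74.1% to 77.8% of the other miRNAs. For miR-26a that distance was 0.12 to 0.19. In CC against CP_14 the distance was 0.53 to 0.63 for miR-26a and -0.91 to -0.82 for miR-26b. miR-26a thus lay above the median of all miRNAs tested in that comparison and miR-26b below it.

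**Figure D3:**
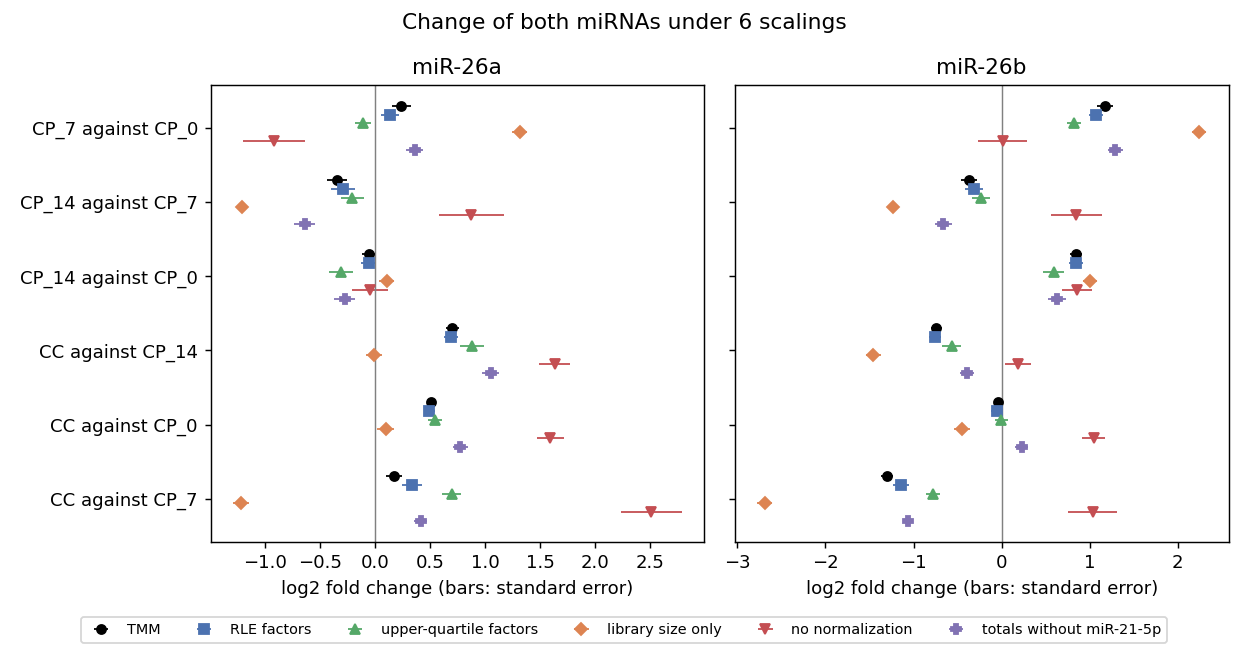
The horizontal axis is the log2 fold change of miR-26a (left) and miR-26b (right), with bars for the standard error, and the vertical axis lists the 6 comparisons, with 1 symbol for each scaling. Library size only and unscaled reads give the outer values, such as 2.24 and 0.013 for miR-26b between CP_7 and CP_0.

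The miRNAs with the most similar pattern were named as a description, among 165 cattle-named miRNAs with a mean of at least 50 reads a library. For miR-26b they were miR-181b (Pearson r = 0.99 over the 12 libraries, which fall into 4 groups and share the same composition factors), miR-16a (0.96) and miR-30b-5p (0.96). miR-181b had 118 ± 6.72 TMM-normalized RPM (SD, n = 3) at day 0, 848 ± 161 at day 7, 433 ± 60.5 at day 14 and 167 ± 10.3 in chondrocytes, a wider span than that of miR-26b. For miR-26a they were miR-199a-5p (0.97), miR-455-5p (0.97) and miR-30d (0.96). miR-199a-5p was at 1852 ± 82.0 at day 0 and 2694 ± 342 at day 7. It was at 1466 ± 208 at day 14 and 4744 ± 430 in chondrocytes. miR-455-5p, a miRNA of cartilage, was at 228 ± 10.7 at day 0, 263 ± 38.5 at day 7, 228 ± 17.6 at day 14 and 540.3 ± 37.2 in chondrocytes. In RPM, a scale chosen after seeing the data, miR-30b-5p was first for miR-26b (0.99), but miR-199a-5p, miR-455-5p and miR-30d were 46, 41 and 50 in the order for miR-26a, which let-7f led (0.99).

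**Figure D4:**
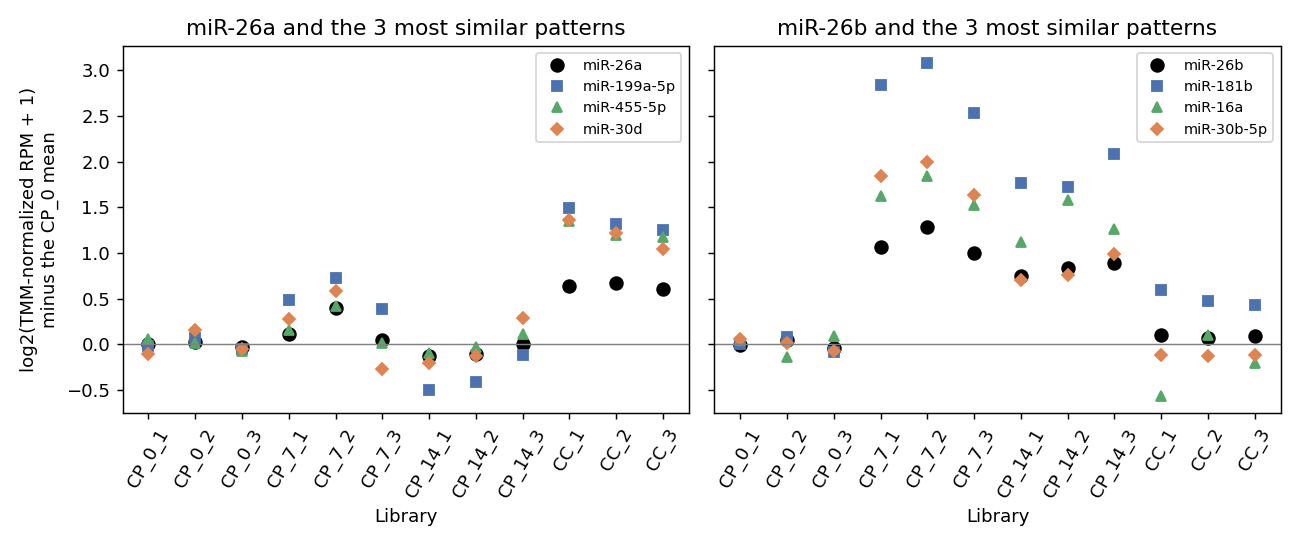
The vertical axis is log2(TMM-normalized RPM + 1) minus the mean of the CP_0 libraries, and the horizontal axis the 12 libraries, for miR-26a (left) and miR-26b (right) with the 3 miRNAs of most similar pattern. miR-26b and its neighbours are raised in CP_7 and CP_14, and miR-26a and its neighbours most in CC. Of these neighbours, miR-199a-5p is also raised in CP_7, and miR-181b to a lesser degree in CC.

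Related miRNAs were described in 3 lists. Cartilage miRNAs are represented by miR-140 and both arms of miR-455, which come from cartilage genes. In CC against CP_14, 2 of these 3 were called, both higher, with a median log2 fold change of 0.78 beside 0.086 for all miRNAs tested, of which 74.6% were called and 37.7% called higher. In this list 1 was called higher and 1 lower with library size only. miR-455-5p was higher by 1.23 (SE 0.077, limma adjusted p = 7.0e-07). In CP_7 against CP_0, miR-455-3p rose by 1.43 (adjusted p = 4.3e-04 by limma) and miR-140 was lower by 1.03 (log2 fold change -1.03, limma adjusted p = 2.6e-05), which became 0.047 with library size only. Without CP_0 replicate 3, an omission added for the lists after seeing the data, these were 1.49 and -1.08, both called.

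Of the miRNAs that share EZH2 as a known target with the miR-26 family, miR-101 could be tested. miR-138 did not pass the filter in the fits on all 6 libraries of a comparison. It passed in CC against CP_0 without CP_0 replicate 3, where both miRNAs were called higher. miR-101 was at 1677, 1539 and 1483 RPM at day 0, 715, 764 and 893 at day 7, 2067, 2046 and 1816 at day 14 and 1247, 1299 and 1502 in chondrocytes. Every CP_7 library was thus below all others, where miR-26b was highest. miR-101 fell by 2.06 between CP_0 and CP_7 (SE 0.089, limma adjusted p = 3.4e-06) and rose by 2.19 between CP_7 and CP_14 (SE 0.080, limma adjusted p = 2.5e-06). Without CP_0 replicate 3 the first of these was -2.11 and called. Over the 6 scalings the changes ran from -3.22 to -0.99 and from 1.32 to 3.41.

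The miRNAs known, like the miR-26 family, to be repressed by MYC comprise let-7, miR-15, miR-16, miR-22, miR-23, miR-29, miR-30, miR-34, miR-146, miR-150 and miR-195 names. Of 36 listed, 32 were tested in CP_7 against CP_0, with 17 called higher, 6 lower and 9 not called, and a median of 0.53. Every let-7 name tested except let-7a-3p was among those called higher, as was every miR-29 name tested. Names of 1 family thus count several times here. Over all miRNAs tested the median was 0.075, with 63.8% called, 35.8% higher and 28% lower. Without CP_0 replicate 3 the list again had 17 called higher and 6 lower, with a median of 0.49. Among them let-7c rose by 2.03 (adjusted p = 1.8e-05 by limma), miR-30b-5p by 1.88 (adjusted p = 1.6e-05) and miR-16a by 1.73 (adjusted p = 1.4e-04), while miR-34c fell by 4.19 (SE 0.82, adjusted p = 0.0031). With CP_0 replicate 3 left out, let-7c was 2.03, miR-30b-5p 1.82, miR-16a 1.75 and miR-34c -3.46, all called. From day 7 to day 14, 3 were higher, 17 lower and 12 not called, and every let-7 name tested was among the lower ones. The median was -0.63, beside -0.0089 over all miRNAs, of which 24.4% were called higher and 28.5% lower. In CC against CP_14, 16 were higher, 10 lower and 7 not called, with a median of 0.28 beside 0.086 over all miRNAs, of which 37.7% were called higher and 37% lower. In CC against CP_7, 7 of 32 were higher and 17 lower, with a median of -0.42 beside -0.089 and with 29% of all miRNAs called higher and 38.4% lower. For CP_14 against CP_0, 7 of 33 were higher, 7 lower and 19 not called, with a median of -0.029 beside 0.010. Of all miRNAs there, 24.8% were called higher and 21.2% lower. For CC against CP_0, 11 were higher, 6 lower and 16 not called, with a median of 0.18 beside 0.053. Of all miRNAs there, 30% were called higher and 25.8% lower. Without CP_0 replicate 3 these became 8 higher and 7 lower, and 12 higher and 6 lower. These splits depended on the scaling. Unscaled reads turned CP_7 against CP_0 to 1 higher and 13 lower, and CP_14 against CP_7 to 11 higher and 2 lower. Library size only turned CC against CP_14 to 4 higher and 21 lower, and CC against CP_0 to 2 higher and 13 lower. CC against CP_7 became 26 higher and 0 lower on unscaled reads, with a median of 1.90. Upper-quartile factors gave that comparison 12 higher and 13 lower, with a median of 0.097.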

How the data were processed

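Total RNA was prepared with NEBNext small RNA reagents and sequenced on an Illumina NovaSeq instrument. The authors deposited 1 file a library with RPM values, reads on a miRNA scaled to a fixed total over all listed miRNAs, under the header tpm. The submitters' processing notes name CASAVA, bcl2fastq 1.8.4 and Bowtie. Trimming, read counting, genome build and miRNA database: not given in the sources used here. Mature sequences are not reported here.

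Reads were recovered by dividing each value by that of 1 read in its library, and 100% of the values were whole within 0.01 read. The family members and lists were chosen with earlier results of these data known. Each pair of groups was fitted on its 6 libraries with limma 3.58.1 (R 4.3.3) and its trend option, two-sided, on the log2 of TMM-normalized RPM plus a pseudocount of 1, after edgeR 4.0.16's filterByExpr (minimum count 10, minimum total 15). Benjamini-Hochberg adjustment ran over all miRNAs tested (threshold 0.05), and fold changes on this scale understate those of rare miRNAs. The log2 ratio of miR-26a to miR-26b reads was compared by exact two-sided permutation. DESeq2 1.42.0, edgeR's quasi-likelihood test, other scalings, filters, pseudocounts and thresholds, collapsed names, the replicate number as a block and leaving out each library were alternatives. The limma procedure was tested on simulated data.

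Named miRNAs are the members, the 3 most similar patterns of each, and listed miRNAs called with at least 2-fold change and a mean of 50 reads. Of the last, only the largest changes of a list were taken, so not every such miRNA is named in each comparison. Deviations of same-numbered libraries from their group means correlated over 0.1 in all 3 pairs only for CC against CP_7 (0.12 to 0.17 over 284 miRNAs). There the numbers were taken as pairing the libraries, although the labels name no shared source. No library was a copy of another (chi-square per degree of freedom at least 4.92).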

Additional observations from a re-analysis of the deposited data

How the results depend on the processing

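The ratio of miR-26a to miR-26b kept its direction in all 6 comparisons with miR-26c in place of miR-26a, with the difference of limma fold changes, with the replicate block and with each library left out, and it differed between the 4 groups with miR-26c, the block and each library left out (exact permutation p = 0.0035 at most, with the replicate block, F = 864). With 3 pairs the block allows no p below 0.25.

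For single members the results depended on scaling. With unscaled reads miR-26a was -0.92 for CP_7 against CP_0, 0.88 for CP_14 against CP_7 and 2.51 for CC against CP_7, and miR-26b was 0.013, 0.85, 0.18 (CC against CP_14), 1.04 (CC against CP_0) and 1.03 (CC against CP_7). With library size only miR-26a was 0.11 for CP_14 against CP_0, -0.0090 for CC against CP_14, 0.098 for CC against CP_0 and -1.22 for CC against CP_7, and miR-26b -0.45 for CC against CP_0. With upper-quartile factors miR-26a was -0.11, -0.20, -0.31 (CP_14 against CP_0, called) and 0.70 (CC against CP_7, called), and miR-26b -0.23 for CP_14 against CP_7. With RLE factors miR-26a was 0.14, -0.29 and, for CC against CP_7, 0.34. With totals that leave out miR-21-5p it was -0.27 for CP_14 against CP_0 and 0.42 for CC against CP_7, both called, and miR-26b was 0.23 for CC against CP_0. The cause of these shifts was not tested beyond the scaling itself.

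Among other settings, the call of miR-26a in CP_7 against CP_0 was lost with collapsed names (0.21), a single fit of the 12 libraries (0.19) and no filter (0.24), and CC against CP_7 gained one with DESeq2 (0.31), that single fit (0.45) and the replicate block (0.18). In that single fit miR-26b of CC against CP_0 was 0.091. The replicate block ended the calls of CP_14 against CP_7 (miR-26a -0.34, adjusted p = 0.073, and miR-26b -0.37, adjusted p = 0.060, by limma). There the labels do not say what a number shares, and same-numbered libraries did not all deviate together. Apart from these and the call gained in CC against CP_7, the block changed no call of the members. A 2-fold minimum left miR-26b called in CP_7 against CP_0 and CC against CP_7, and ended the calls at 0.24, -0.34, 0.71 and 0.51 of miR-26a and at -0.37, 0.84 and -0.74 of miR-26b. It also lowered the number of called miRNAs from 130 to 76, 115 to 48, 206 to 98 and 145 to 51 in CP_14 against CP_7, CP_14 against CP_0, CC against CP_14 and CC against CP_0.

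Leaving out single libraries gave, for miR-26a, -0.051 to 0.28 (CP_7 against CP_0), -0.40 to -0.16 (CP_14 against CP_7), -0.13 to -0.037 (CP_14 against CP_0) and 0.13 to 0.80 (CC against CP_7), and for miR-26b -0.42 to -0.21 (CP_14 against CP_7) and -0.053 to 0.0055 (CC against CP_0). Depth limits the CP_7 libraries most, where 1 read is worth up to 1.85 RPM.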

Other observations

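miR-26a and miR-26c were not the only names with nearly the same reads. Over the 545 listed names, 7 pairs with at least 100 reads in all agreed within 1% in every library. Besides miR-26a and miR-26c they were let-7b and miR-3596, miR-148c and miR-152, miR-1814c and miR-2310, miR-199a-3p and miR-3604, miR-22-3p and miR-3600, and miR-6529a and miR-6529b. The pairs miR-22-3p with miR-3600 and miR-1814c with miR-2310 were equal in all 12 libraries, whereas miR-199a-3p and miR-3604 differed in all 12, by at most 34 reads. Which of the names in a pair the reads came from was not tested.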
